A study of Mus musculus with 9 samples.

Results

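The embryonic globins Hba-x, Hbb-bh1 and Hbb-y, the alpha globin Hba-a1 and 5 further genes of the red cell lineage (Gata1, Klf1, Alas2, Epor and Slc4a1) were followed across 3 regions of the mouse tail. All probes annotated to these 9 of the 19057 genes named on the array were taken, 12 of its 45281 probes. The regions were the chordoneural hinge (CNH), which contains axial progenitors, the tailbud mesoderm (TBM) beside it, and the presomitic mesoderm (PSM), from which somites bud. All came from wild-type embryos at E10.5, with about 50 pieces of a region pooled for a sample, and each region was hybridised to 3 Illumina Ref6v2 BeadArrays. According to the methods, a region had 2 biological replicates and 1 technical one, but which array was the technical one is not stated, and the CD1 and C57Bl/6J females named there are not assigned to samples. All 3 arrays of a region entered the tests as separate samples, with the replicate number of the titles as a block. The errors and p-values therefore measure the spread left after region and replicate number are fitted, part of which is technical.

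Primitive red cells arise in the yolk sac and enter the circulation of the mouse embryo before definitive red cells from the fetal liver take over. They carry the embryonic globins: Hba-x encodes the zeta chain of the alpha family, and Hbb-bh1 and Hbb-y encode chains of the beta family, while Hba-a1 is used in both embryonic and adult cells. GATA1 and KLF1 are the transcription factors that switch on globin and other red cell genes. ALAS2 catalyses the first step of haem synthesis in erythroid cells, EPOR receives erythropoietin, and SLC4A1 (band 3) is the anion exchanger of the red cell membrane. Epor is also transcribed outside the lineage, for example in endothelial cells. Their levels were compared to describe how much erythroid RNA the dissected pieces carried. In pooled pieces, fewer red cells and less RNA per red cell cannot be told apart.

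The start of each gene was looked up in RefSeq (GRCm38.p6), which gave a window of 250 bases before to 50 bases after the transcription start for 7 of the 9 genes. Windows are printed for the embryonic globins Hba-x and Hbb-y, which were bright on every array, and for Alas2 and Epor, which were higher in both tailbud regions than in the PSM. Capitals mark every match, on either strand, to AGATAA, which the GATA1 protein recognises, or to CCNCNCCC, which the KLF1 protein recognises.
Hba-x (chr11:32276350-32276649, forward strand): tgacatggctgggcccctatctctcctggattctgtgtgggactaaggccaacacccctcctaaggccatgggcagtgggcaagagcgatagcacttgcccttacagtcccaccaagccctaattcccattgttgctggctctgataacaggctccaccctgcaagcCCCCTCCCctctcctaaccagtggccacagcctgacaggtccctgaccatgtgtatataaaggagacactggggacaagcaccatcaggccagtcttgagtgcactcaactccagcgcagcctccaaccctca
Hbb-y (chr7:103853158-103853457, reverse strand): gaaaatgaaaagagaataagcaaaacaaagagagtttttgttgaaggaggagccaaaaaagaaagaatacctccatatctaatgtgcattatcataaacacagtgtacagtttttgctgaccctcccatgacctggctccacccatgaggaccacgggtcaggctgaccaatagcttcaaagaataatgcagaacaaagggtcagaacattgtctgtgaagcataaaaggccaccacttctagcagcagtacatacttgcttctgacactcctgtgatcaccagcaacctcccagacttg
Alas2 (chrX:150547167-150547466, forward strand): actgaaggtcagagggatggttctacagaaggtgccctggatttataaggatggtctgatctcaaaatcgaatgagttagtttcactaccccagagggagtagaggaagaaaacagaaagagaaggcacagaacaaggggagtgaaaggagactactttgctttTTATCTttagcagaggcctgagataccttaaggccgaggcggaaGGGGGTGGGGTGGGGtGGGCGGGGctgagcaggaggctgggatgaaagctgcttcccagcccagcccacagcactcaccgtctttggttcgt
Epor (chr9:21963527-21963826, reverse strand): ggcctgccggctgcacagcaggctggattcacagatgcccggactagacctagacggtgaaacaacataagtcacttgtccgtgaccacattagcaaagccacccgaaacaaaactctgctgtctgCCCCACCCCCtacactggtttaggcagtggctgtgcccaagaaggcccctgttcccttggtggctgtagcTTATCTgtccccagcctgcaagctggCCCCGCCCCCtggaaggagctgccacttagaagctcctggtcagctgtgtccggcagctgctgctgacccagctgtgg
AGATAA occurred in 2 of the 7 windows, those of Alas2 and Epor, and in 11.2% of all 32851 windows of this length. CCNCNCCC occurred in 4 of the 7 (Hba-x, Gata1, Alas2 and Epor) and in 49.5% of all windows. The Alas2 and Epor windows each held 4 CCNCNCCC matches, some of which overlapped one another. Only these exact letters were searched, so near forms, such as TGATAA in the Hba-x window, were neither marked nor counted. These are matches of letters and say nothing of binding.

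Signals are linear and have no background subtracted. A probe counted as detected on an array when its deposited detection p, which sets its signal against the negative controls of that array, was under 0.01. Between 30.1% and 32.7% of probes were detected on an array, and the median signal was 63.0 to 80.4. The replicate numbers in the sample titles did not contribute equally: the 3 arrays numbered 3 stood apart from the other 6 in every region. Replicate 3 differed from replicates 1 and 2 at 55.4% of tested probes. Within a region, the SD of log2 differences was 0.21 to 0.23 between replicates 1 and 2, against 1.05 to 1.21 for pairs with replicate 3. Whether replicates 1 and 2 are the technical pair was not tested. Agreement in all 3 replicate numbers may therefore not mean 3 independent samples. The region labels were set against a list of markers: 5 of 5 tested tailbud genes, such as Evx1, were called higher in CNH than PSM. Of the tested genes of the PSM and young somites, such as Tcf15, 4 of 4 were called lower. The authors name the 5 tailbud genes among their most CNH-enriched genes from these arrays, so they give no independent check. Regions were therefore compared within a replicate number.

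Erythroid RNA was detected on every array. The probes of Hba-x, Hbb-bh1, Hbb-y, Hba-a1, Klf1, Alas2, Epor and Slc4a1 were detected on 9 of 9 arrays, 9 probes of 8 genes in all. The Hba-a1 probe ranked 1 to 15 among the 45281 probes by signal, depending on the array. Hbb-bh1 ranked 3 to 76, the 2 Hbb-y probes ranked 4 to 51 and 29 to 61, and Hba-x ranked 54 to 219, so that globin probes stood near the top of all 9 arrays. Slc4a1 ranked 325 to 771 and Alas2 1494 to 4355. Ranks depend on how well each probe hybridises, so they do not order these genes against each other.

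The remaining 3 probes were not tested. A second Hbb-bh1 probe (ILMN_2550129) was detected on 0 of 9 arrays, with signals of 61.2 to 83.8, although the first read 11427 to 39079. The 2 Gata1 probes were detected on 0 and 1 of 9 arrays, at signals of 61.3 to 86.9 and 59.7 to 89.1. The Gata1 probes thus lay at or near background by the array's controls, whereas the Klf1 probe was measurable on all 9 arrays. The 2 Hbb-bh1 probes show that an undetected probe need not mean absent RNA, so the level of Gata1 RNA is not known.

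The 5 globin probes together made up 1.43%, 1.43% and 1.56% of the summed normalized signal of tested probes in CNH replicates 1, 2 and 3. In TBM the shares were 1.37%, 1.38% and 1.46%, and in PSM they were 1.18%, 1.13% and 1.38%. The PSM held the smallest share within each of the 3 replicate numbers, although its replicate 3 exceeded replicate 1 of TBM. In the deposited signals, with no background subtracted, this held for replicate numbers 1 and 2 only: PSM replicate 3 had a share of 1.01% and TBM replicate 3 one of 1.00%. These are shares of probe signal and not of mRNA.

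**Figure D1:**
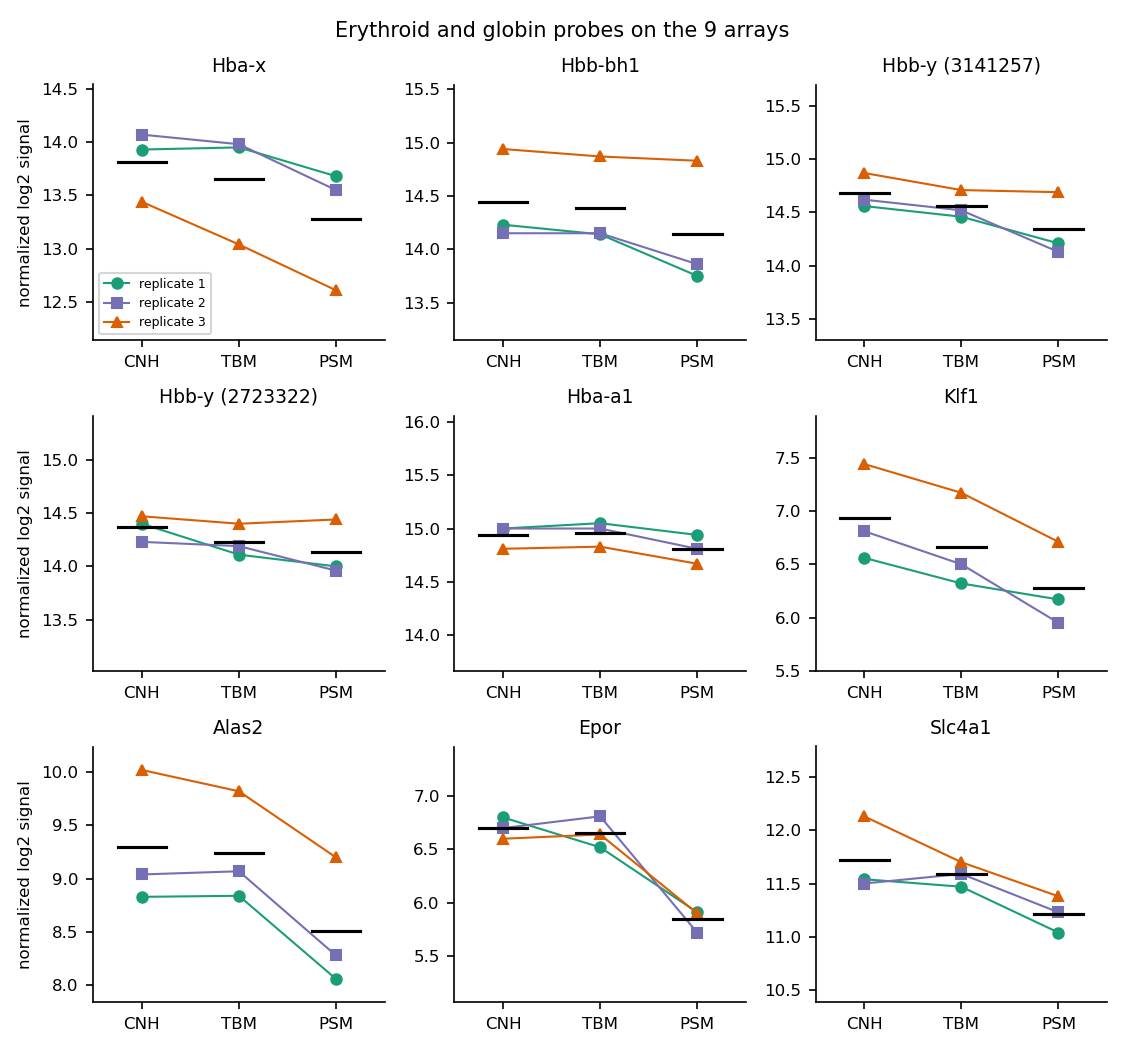
Normalized log2 signal of the 9 tested probes (y axis, each panel spanning the same range of 2.4 log2 units) in CNH, TBM and PSM (x axis). Coloured lines join the arrays of 1 replicate number and black bars are means of 3 arrays. PSM was the lowest region in all 3 replicate numbers for 8 of the 9 probes, and replicate 3 lay apart for Hba-x, Hbb-bh1, Klf1 and Alas2.

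To test whether the regions differed in erythroid RNA, CNH was compared with PSM in a fit over all 12437 detected probes with the replicate number as a block (limma, Benjamini-Hochberg adjustment). A probe was called at an adjusted p under 0.05 and a fold change of at least 1.5. Epor, Alas2 and Klf1 were called higher in CNH, 3 of the 9 probes, against 6.66% of all tested probes called higher. None of the 9 was called lower, against 4.54% (11.2% in either direction). The median log2 fold change of the 9 probes was 0.50, beside -0.04 over all tested probes. All 9 probes were higher in CNH within each of the 3 replicate numbers, which held for 21.0% of all tested probes. The 9 genes were chosen with earlier results of these data known, so these shares only describe them.

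Epor was among the dimmer of the 9 probes. Its normalized log2 signal was 6.80, 6.70 and 6.60 in CNH replicates 1, 2 and 3, 6.52, 6.81 and 6.64 in TBM, and 5.91, 5.72 and 5.90 in PSM. The 3 PSM arrays lay below all 6 arrays of the other regions, with no overlap, and replicate 3 did not stand apart. The deposited signals ran from 143 to 175 in CNH and from 104 to 111 in PSM. The log2 fold change of CNH against PSM was 0.86 (SE 0.12, adjusted p = 0.00087), or 1.81-fold with a 95% interval of 1.49 to 2.19. Its size depended on the background correction: it was 0.59 with an offset of 50, 0.45 with no correction and 0.21 in the deposited VST and RSN values, the last 2 under the fold limit.

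Alas2 was split by replicate number as well as by region. Its log2 signal was 8.83, 9.04 and 10.02 in CNH, 8.84, 9.07 and 9.82 in TBM, and 8.06, 8.28 and 9.20 in PSM. Replicate 3 was the highest array of each region, and PSM replicate 3 exceeded replicates 1 and 2 of both other regions. Within replicate numbers 1, 2 and 3 the excess of CNH over PSM was 0.77, 0.75 and 0.82, nearly the same in each. The fitted difference was 0.78 (SE 0.10, adjusted p = 0.000512), 1.72-fold.

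Klf1 was dimmer, with log2 signals of 6.56, 6.81 and 7.44 in CNH, 6.32, 6.50 and 7.17 in TBM, and 6.17, 5.95 and 6.71 in PSM. The order CNH, TBM, PSM held within each replicate number, and the regions overlapped across numbers. The difference of CNH from PSM was 0.66 (SE 0.12, adjusted p = 0.00348), 1.58-fold, close to the fold limit. The call was lost without PSM replicate 2 and without the 3 arrays of replicate 3, at 0.57 in each case. Without the replicate block, Alas2 (adjusted p = 0.821) and Klf1 (adjusted p = 0.72) lost their calls at unchanged fold changes and Epor alone kept its call (adjusted p = 0.0313).

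Slc4a1 and Hba-x passed the adjusted p but stayed under 1.5-fold. Slc4a1 read 11.54, 11.50 and 12.13 in CNH, 11.47, 11.59 and 11.70 in TBM, and 11.04, 11.23 and 11.38 in PSM. All CNH and all TBM arrays lay above all PSM arrays, and the difference of CNH from PSM was 0.50 (SE 0.12, adjusted p = 0.0186). The limma adjusted p of Slc4a1 was 0.0596 to 0.0777 when replicate 1 or 3 of either region was left out and 0.525 without the replicate block. Without CNH replicate 2 the probe passed both limits (0.62, adjusted p = 0.0192). Epor and Slc4a1 were the 2 of 9 probes whose CNH arrays all exceeded all PSM arrays, which 6.75% of all tested probes did.

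Hba-x, the zeta globin, had log2 signals of 13.93, 14.07 and 13.44 in CNH, 13.95, 13.98 and 13.04 in TBM, and 13.68, 13.55 and 12.61 in PSM. Here replicate 3 was the lowest array of each region, opposite to Alas2. The difference of CNH from PSM was 0.53 (SE 0.13, adjusted p = 0.0153), 1.45-fold, just under the limit. Within replicate numbers 1, 2 and 3 it was 0.25, 0.52 and 0.83. It passed the fold limit, at 0.65, in the VST and RSN values that the authors deposited. It also did so without CNH replicate 1 (0.64) and without PSM replicate 1 (0.63). Its limma adjusted p exceeded 0.05 when replicate 2 or 3 of either region was left out, at 0.0543 and 0.0505 for CNH and at 0.0675 and 0.0534 for PSM, and it was 1 without the replicate block.

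The other globins differed less between regions, and none passed the adjusted p. Hbb-bh1 (the beta H1 chain) read 14.23, 14.15 and 14.94 in CNH, 14.14, 14.15 and 14.87 in TBM, and 13.75, 13.86 and 14.83 in PSM. Its replicate 3 arrays were the 3 brightest whatever the region, and CNH exceeded PSM by 0.29 (SE 0.11, adjusted p = 0.11). Replicate number 1 gave 0.49 and replicate number 3 gave 0.10.

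The brighter Hbb-y probe (ILMN_3141257, the epsilon-y chain) read 14.56, 14.62 and 14.87 in CNH, 14.46, 14.52 and 14.71 in TBM, and 14.21, 14.13 and 14.69 in PSM. PSM replicates 1 and 2 were the lowest arrays and replicate 3 was the highest of each region. The difference of CNH from PSM was 0.34 (adjusted p = 0.0611), and the second Hbb-y probe (ILMN_2723322) gave 0.23 (adjusted p = 0.193). The 2 probes of the gene therefore gave the same direction and the same side of the threshold.

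Hba-a1 was nearly level in probe signal. Its deposited signal was 31221, 29041 and 36201 in CNH, 30935, 28346 and 36293 in TBM, and 26462, 27085 and 30283 in PSM. The ranges of the regions overlapped, and the normalized log2 means were 14.93 ± 0.11, 14.96 ± 0.11 and 14.80 ± 0.13 (SD, n = 3). CNH exceeded PSM by 0.13 (95% interval -0.09 to 0.35, adjusted p = 0.418). This probe was the brightest of all on TBM replicate 1 and ranked 2 on 3 further arrays. Scaling by the median in place of quantile normalization gave 0.14.

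**Figure D2:**
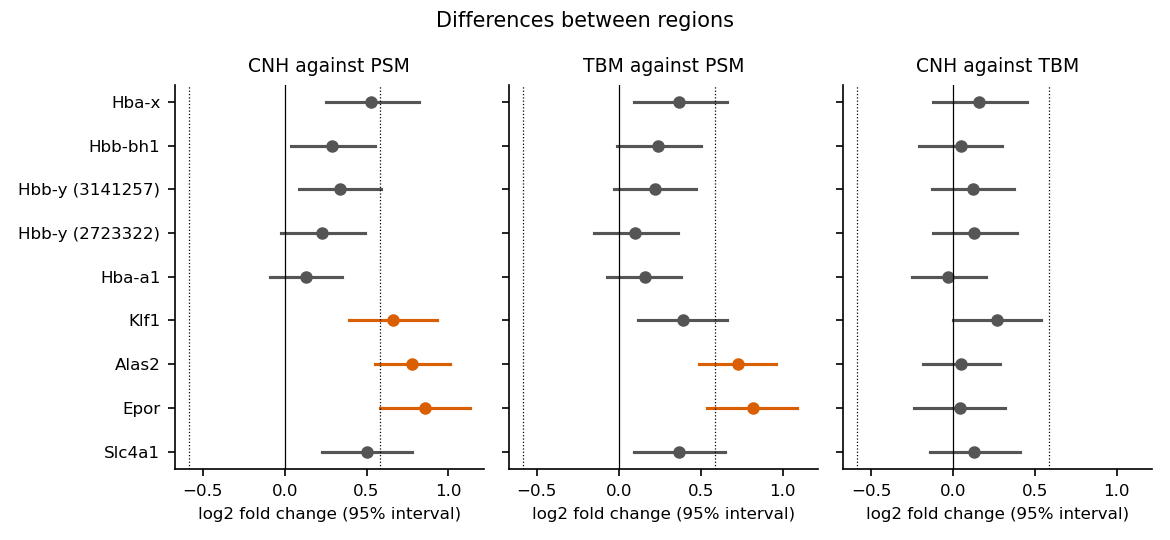
Log2 fold changes of the 9 tested probes (points) with 95% intervals (lines) for CNH against PSM, TBM against PSM and CNH against TBM. Orange marks probes called, the solid line is no difference and dotted lines are 1.5-fold. Alas2 and Epor were called against PSM from both tailbud regions, Klf1 from CNH, and 0 probes were called between CNH and TBM.

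TBM was compared with the same PSM arrays, so the 2 comparisons share their PSM values. Alas2 and Epor were called higher in TBM, 2 of the 9 probes, against 5.37% of all tested probes. None was called lower, against 4.05% (9.42% in either direction). Alas2 was higher by 0.73 (SE 0.10, adjusted p = 0.000965) and Epor by 0.82 (SE 0.12, adjusted p = 0.00141). Within replicate numbers 1, 2 and 3, Epor was higher by 0.61, 1.10 and 0.74. The other 7 probes had fold changes of 0.10 to 0.39 on the log2 scale and adjusted p-values of 0.0598 (Klf1) and above. Of the 9 probes, 8 were higher in TBM than PSM in all 3 replicate numbers, beside 22.4% of all tested probes. All TBM arrays exceeded all PSM arrays for 2 of the 9 (Epor and Slc4a1), beside 6.19%. The exception to a higher TBM was the Hbb-y probe ILMN_2723322, which was lower by 0.04 in replicate 3. Without the replicate block, Alas2 lost its call (adjusted p = 1) and Epor kept it (adjusted p = 0.0483).

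PSM was the lowest of the 3 regions in all 3 replicate numbers for 8 of the 9 probes, beside 14.1% of all tested probes. No order of CNH and TBM held in this way: CNH exceeded TBM in all 3 replicate numbers for 3 of the 9 probes (Klf1 and both Hbb-y probes), beside 16.6% of all tested probes. All CNH arrays exceeded all TBM arrays for 0 of the 9, beside 2.51%. In the fit, 0 of the 9 probes were called between CNH and TBM in either direction (limma), against 0.780% of all tested probes higher and 0.225% lower (1.01% in all). Fold changes were -0.03 (Hba-a1) to 0.27 (Klf1) on the log2 scale, and Klf1 was the 1 of 9 with an unadjusted limma p under 0.05 (adjusted p = 0.391). The 95% intervals of Epor (-0.24 to 0.32), Alas2 (-0.18 to 0.29) and Hba-x (-0.12 to 0.45) left differences of up to 1.25-fold, 1.22-fold and 1.36-fold possible in favour of CNH.

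Replicate 3 was then compared with the mean of replicates 1 and 2 over the 3 regions. What sets replicate 3 apart is not given in the sources used here. Alas2, Hbb-bh1 and Klf1 were called higher in replicate 3, 3 of the 9 probes, and Hba-x was called lower, 1 of 9, against 32.6% and 22.9% of all tested probes. The erythroid probes were thus no more often called than probes at large, which were also called in both directions.

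Alas2 was higher in replicate 3 by 0.99 (SE 0.09, adjusted p = 3.67e-06), and Hbb-bh1 by 0.83 (SE 0.10, adjusted p = 2.47e-05). Klf1 was higher by 0.72 (SE 0.10, adjusted p = 0.0001). Hba-x, in contrast, fell by 0.83 (SE 0.11, adjusted p = 5.52e-05), and it was lower in 3 of 3 regions. The deposited linear signals of Hba-x were also lower in replicate 3 in TBM, at 12649 against 13478 and 13593 in replicates 1 and 2, and in PSM, at 8183 against 10904 and 10584. In CNH the deposited signal was higher in replicate 3, at 16765 against 13714 and 13701. The Hba-x and Hbb-bh1 probes therefore did not change together between the replicate numbers. Probes annotated to 1 gene could differ as well: 2 probes of the globin Hbb-bs gave 0.26 (ILMN_1244316) and -0.94 (ILMN_1229203). These values describe probes and do not separate alpha-type from beta-type globins. Epor differed by -0.03 (95% interval -0.27 to 0.21) and Hba-a1 by -0.19 (adjusted p = 0.0638). The median over all tested probes was 0.19 in this comparison and -0.01 after median scaling, and with that scaling 48.1% of all calls were higher in place of 58.7%. Under median scaling, Klf1 lost its call (0.48), Slc4a1 gained one (0.59 in place of 0.35), and Hba-a1 fell by 0.51 (adjusted p = 0.000747) and Epor by 0.37 (adjusted p = 0.00757), both under 1.5-fold. The Hbb-y probes differed by 0.34 and 0.29, and by 0.07 and 0.08 with median scaling.

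**Figure D3:**
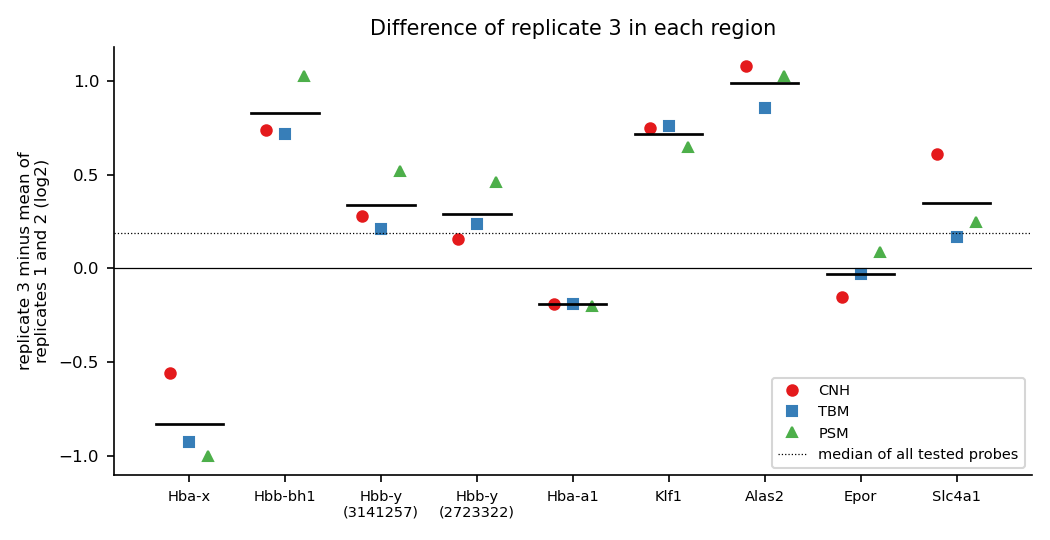
Difference of replicate 3 from the mean of replicates 1 and 2 (y axis, log2) for each tested probe (x axis), separately in CNH, TBM and PSM (symbols), with the fitted difference (bar). The dotted line is the median of all tested probes, 0.19. Alas2 lay 0.86 to 1.08 above 0 in the 3 regions and Hba-x 0.56 to 1.00 below it.

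With the mean of each replicate number removed, the 9 probes ran together over the 9 arrays. Pearson's r between 2 of them was 0.49 to 0.96 (median 0.84) and was above 0 for 36 of 36 pairs. As measured, r was -0.67 to 0.95 and above 0 for 24 of the 36 pairs. The arrays share their replicate structure and the regions have 3 levels, so these values only describe the profiles.

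The genes outside the 9 with the profiles most like Hba-x, out of 7812 compared over the 9 arrays, were Ly6e (r = 0.981), Plvap (0.977), Pkm (0.974), Bcat2 (0.972) and Gapdh (0.972) as measured. After removal of the replicate means they were Tspoap1 (0.986), Gnb2 (0.986), Dennd6b (0.985), Cercam (0.983) and Abca7 (0.981). For Hbb-y they were Fblim1 (0.976), Myh9 (0.971), Fcrls (0.970), Acot1 (0.969) and Pcdh12 (0.967) as measured. After removal they were Erich2 (0.984), Emcn (0.981), Ndufaf4 (0.973), Svopl (0.973) and Pkp2 (0.971). With the 9 genes left out, Hbb-bs and Hbb-bt were the only globins that could have appeared, and neither did. Of the 20 genes, 2, Plvap and Emcn, were on the list of endothelial genes used here.

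The adult-type beta globins Hbb-bs and Hbb-bt have near-identical sequences, so their probes cannot be assigned to 1 gene with certainty. Of 13 probes annotated to globins outside the 9 genes, 6 of Hbb-bs and 4 of Hbb-bt were tested. In CNH against PSM, 8 of these 10 were called higher, against 6.66% of all tested probes. The log2 fold changes of the 10 were 0.22 to 1.10, with a median of 0.66. The 10 probes belong to 2 genes, so they are not 10 separate results. By the brightest probe of each gene, 1 of the 2 was called (Hbb-bs), and Hbb-bt (0.52) was not. The brightest Hbb-bs probe (ILMN_1244316) read 12.40, 12.40 and 12.66 in CNH and 11.70, 11.74 and 12.14 in PSM, a difference of 0.63 (SE 0.11, adjusted p = 0.00298). All 3 CNH arrays lay above all 3 PSM arrays, as for 6.75% of all tested probes. Its call was lost with median scaling (0.56) and without the replicate block. In TBM against PSM, 5 of the 10 were called higher (0.22 to 1.04), against 5.37% of all tested probes. By the brightest probe, 0 of the 2 genes were called there (limma, 2 at an unadjusted p under 0.05). Between CNH and TBM, 0 of the 10 were called (limma, 0.01 to 0.22, 0 at an unadjusted p under 0.05). Of all tested probes, 0.780% were called higher there and 0.225% lower.

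These probes did not act as 1 reporter across replicate numbers. The Hbb-bs probe ILMN_1255462 was higher in CNH than PSM by 1.48 and 1.60 in replicate numbers 1 and 2 but by 0.23 in number 3. Against replicates 1 and 2, replicate 3 was called higher with 1 of the 10 probes and lower with 3, over a range of -0.94 to 0.87. Of all tested probes, 32.6% were called higher in replicate 3 and 22.9% lower. On chromosome 7 the gene table places Hbb-bt, Hbb-bs, Hbb-bh1 and Hbb-y in 1 cluster, and on chromosome 11 it places Hba-x next to Hba-a1.

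Other genes of the red cell lineage were read from lists. All lists used here were chosen with earlier results of these data known. The authors' own CNH-enriched genes from these arrays include Hba-x, Lmo2, Notch4 and Ramp2. Counts of called genes in the lists are therefore descriptive and give no independent check. Of 9 tested erythroid transcription factors, 2 were called higher in CNH than PSM and 0 lower, with a median of 0.38 beside -0.04 over all 7820 genes, of which 7.43% were called higher and 4.85% lower. They were Lmo2, a bridging partner of GATA1 and TAL1 that endothelial cells also use (1.31, adjusted p = 0.000399), and E2f2, a cell cycle factor (0.83, adjusted p = 0.00192). Nfe2, a regulator of globin genes, gave 0.57 (adjusted p = 0.00591), under the fold limit. Of the 9 factors, 7 lay above 0. Ldb1 (0.05), Bcl11a (-0.02) and Zbtb7a (-0.13) were near level and not called. Gata2, Runx1, Myb, Gfi1b, Sox6, Cbfa2t3 and Foxo3 were not detected throughout any region and were not tested. Lmo2 (1.33) and E2f2 (0.61) were also called in TBM against PSM, where 5.92% of all genes were called higher and 4.54% lower.

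Genes of haem synthesis and iron handling showed no called difference: 0 of 15 between CNH and PSM (limma, median 0.22, 5 at an unadjusted p under 0.05) and 0 of 15 between TBM and PSM (median 0.15, 5 at an unadjusted p under 0.05). Alad, the second enzyme of the haem pathway, gave 0.28 (adjusted p = 0.0902), and the ferritin heavy chain Fth1 gave 0.22 (adjusted p = 0.174). Most of these enzymes are used by all cells, unlike Alas2.

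Of 16 tested genes of the red cell membrane and red cell enzymes, 3 were called higher in CNH than PSM and 0 lower, with a median of 0.39. Of all genes, 7.43% were called higher and 4.85% lower. They were Dmtn (dematin, a protein of the membrane skeleton) at 1.57 (adjusted p = 4.87e-05), the carbonic anhydrase Car2 at 0.93 (adjusted p = 0.000615) and the glucose transporter Slc2a1 at 0.65 (adjusted p = 0.00427). Slc2a1 is broadly used, and its call was lost with median scaling and in the deposited values, at 0.58 in both. Dmtn (1.44) and Car2 (0.62) were called in TBM too. The red cell beta spectrin Sptb gave 0.56 (adjusted p = 0.0198) in CNH against PSM, under the fold limit. It was 1 of 13 genes not called, as were Kel (0.55), Trim10 (0.54), Hemgn (0.40), Ank1 (0.37), Gypc (-0.21) and Cat (-0.31). Rhag, Rhd, Epb42, Ermap and Car1 were not detected throughout any region and were not tested. Of 5 tested genes of erythropoietin and stem cell factor signalling, 0 were called in CNH against PSM (limma, median 0.21, 3 at an unadjusted p under 0.05). Of these 3, Jak2 (0.52) and Socs3 (0.36) were higher in CNH and Gab1 was lower (-0.39, adjusted p = 0.0376). In TBM against PSM 1 of the 5 was called higher, beside 5.92% of all genes. It was the kinase Jak2, which acts below EPOR (0.62, adjusted p = 0.00218). Gab1 was lower there too (-0.29, adjusted p = 0.139).

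Markers of other cells in blood and vessels were read in the same way, and endothelial and platelet lists, but not the macrophage list, held genes called higher in both tailbud regions than in PSM. Of 16 tested endothelial genes, 11 were called higher in CNH than PSM, with a median of 0.80, and 7 in TBM, with a median of 0.54. Of all genes, 7.43% were called higher in CNH than PSM and 5.92% in TBM. Etv2, a transcription factor of endothelial and blood progenitors, was higher by 1.70 (adjusted p = 1.41e-05) in CNH. Emcn was higher by 1.08 (adjusted p = 0.000542) and Plvap by 0.92 (adjusted p = 0.000152). The summed linear level of the 16 genes was 5466 to 7481 in CNH, 5073 to 6102 in TBM and 3365 to 3901 in PSM. Of the defining markers, Pecam1 and Cdh5 were detected on 9 arrays and Kdr on 2 at most. Pecam1 was called in CNH (0.63) but not in TBM (0.38, adjusted p = 0.147). Cdh5 was called in neither, at 0.29 in CNH (adjusted p = 0.24) and 0.30 in TBM (adjusted p = 0.262). In both comparisons 15 of the 16 genes lay above 0. Sox7 went the other way, at -0.10 in CNH and -0.31 in TBM, and was not called.

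Of 7 tested genes of megakaryocytes and platelets, 3 were called higher in CNH than PSM, with a median of 0.57, against 7.43% of all genes. These were the platelet chemokines Pf4 (0.97, adjusted p = 0.00249) and Ppbp (0.85, adjusted p = 0.00162) and the platelet receptor Treml1 (0.97, adjusted p = 0.00058). The other 4 were not called. They were Gp5 (0.57), Gp9 (0.41, adjusted p = 0.065), Itga2b (0.41, adjusted p = 0.178, detected on 5 arrays) and Vwf (0.05). Against PSM, 7 of the 7 lay above 0 in CNH and 6 in TBM, where Vwf gave -0.17. In TBM 2 of the 7 were called, against 5.92% of all genes. The summed level of the 7 genes was 350 to 641 in CNH, 321 to 414 in TBM and 180 to 345 in PSM, so the TBM and PSM ranges overlapped. Macrophage genes were near background: 3 of 16 listed genes were tested and 0 called by limma (0 and 0 at an unadjusted p under 0.05, medians of 0.16 in CNH and -0.07 in TBM against PSM), Ptprc and Adgre1 were detected on 0 arrays and Csf1r on 6. Between CNH and TBM, 0 genes of the erythroid, vessel and blood lists were called by limma (0 to 4 a list had an unadjusted p under 0.05), against 0.908% of all genes higher and 0.294% lower. The part of vessels and platelets in the erythroid differences from PSM was not tested.

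**Figure D4:**
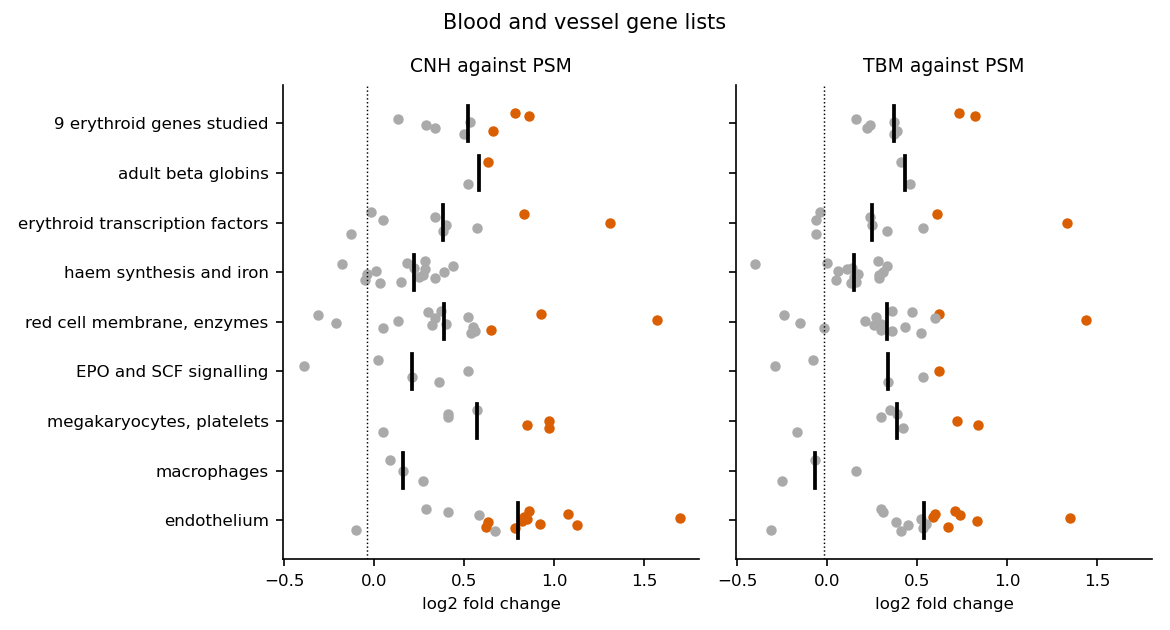
Log2 fold changes (x axis) of each tested gene (points, the brightest probe standing for a gene) in the lists (y axis) for CNH against PSM and TBM against PSM. Orange points were called, black bars are list medians and the dotted line is the median of all genes. In CNH against PSM the median was 0.52 for the 9 erythroid genes (8 tested), 0.80 for endothelium and 0.16 for macrophages.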

How the data were processed

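Total RNA of CNH, TBM and PSM pools was extracted with RNeasy, amplified and biotin-labelled (MessageAmp), and hybridised to 9 arrays. The deposited intensity values are linear bead signals that were neither normalized nor background-subtracted, each with a deposited detection p-value against 908 to 936 negative controls. The authors also deposited log2-scale values, transformed by VST and normalized by RSN in lumi, which were used as an alternative only. The array files name no genome build.

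Signals were corrected with neqc, controls being inferred from the detection p-values (offset 16), quantile normalized and put on a log2 scale in R 4.3.3 with limma 3.58.1. The fit took the 12437 probes whose detection p was below 0.01 throughout at least 1 region, 10857 of them with a symbol (7820 genes). Of all probes, 34885 have 1 gene symbol, 18 several and 10378 none. limma was fitted with region and replicate number (4 residual degrees of freedom). Numbers come from the titles, and arrays that share one deviated together from their region means (r of 0.858 to 0.964). Replicates 1 and 2 did so too (0.863 to 0.893), while replicate 3 went against both (-0.930 to -0.895). Calls need an adjusted p under 0.05 and 1.5-fold. The brightest probe stands for a gene. The fit was tested on simulated data. The number of arrays limits the precision.

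The members and lists were chosen with earlier results of these data known. Named were all probes of the 9 genes, and from each list the genes called in a region comparison and up to 4 of the brightest others, though not all are printed. The genes of similar profile were the 5 of highest r. Alternatives varied the block, background, offset, deposited values, filter, pooling of replicates, single arrays and, chosen after seeing the data, median scaling.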

Additional observations from a re-analysis of the deposited data

How the results depend on the processing

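Between CNH and PSM, 3 of the 9 erythroid probes were called in the fit reported. There was 1 without the replicate block (Epor), 1 without background correction (Alas2) and 1 with the deposited values (Hba-x), and 2 to 4 when each array was left out in turn. With replicates 1 and 2 averaged there were 4 (Alas2, Epor, Hba-x and Klf1). Between TBM and PSM, 2 were called, against 1 without the block (Epor), 1 without background correction (Alas2), 1 with an offset of 50 (Alas2) and 0 with the deposited values. Adjusted p-values of Epor and Alas2 stayed under 0.05 in the deposited values, where Epor differed by 0.21 and Alas2 by 0.49 between CNH and PSM, both under the fold limit. A larger offset and no background correction shrink fold changes of dim probes by construction. Between CNH and TBM, 0 of the 9 were called under every alternative run. For replicate 3, 4 were called, and 3 in each of the deposited values, the larger offset and the uncorrected signals, where Klf1 was lost.

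Over all probes, the 1393 calls between CNH and PSM became 351 without the block, 661 without background correction, 884 with an offset of 50, 279 with the deposited values and 897 among probes detected on all 9 arrays. They were 1363 to 1612 with each array left out. The 1172 calls between TBM and PSM became 268, 550, 749, 242 and 762 in the same order. The 125 calls between CNH and TBM became 0 without the block (limma, 229 at an unadjusted p under 0.05), 48 without background correction, 15 with the deposited values, 20 with no filter, 76 among probes detected on all 9 arrays and 31 with replicates 1 and 2 averaged, and 18 to 179 with each array left out. The 6894 calls for replicate 3 became 2416 with the deposited values.

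Signs turned only for differences near 0. Between CNH and TBM, Alas2 (0.05) became -0.02 without the replicate 3 arrays and -0.01 without TBM replicate 3. Epor (0.04) became -0.03 without CNH replicate 1 and -0.07 without TBM replicate 1. Hba-a1 (-0.03) became 0.05 in the deposited values and 0.03 with median scaling, and Hbb-bh1 (0.05) became -0.01 without CNH replicate 1. With each array left out in turn, the ranges were -0.01 to 0.09 for Alas2, -0.07 to 0.15 for Epor and -0.01 to 0.10 for Hbb-bh1. For replicate 3, Epor (-0.03) became 0.03 without CNH replicate 3 and 0.02 without TBM replicate 2, in a range of -0.09 to 0.03. The brightest globin probes rank near the top of the array, and the Gata1 probes lay at or near background, so neither bounds a difference well.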
